A study of Mus musculus with 4 samples.

Results

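Cullins are the scaffolds of cullin-RING ubiquitin ligases. The kelch-BTB proteins of the Klhl and Kbtbd families are, beside other BTB proteins, adaptors through which CUL3 takes up substrates. The members were all genes of the count table whose symbol begins with Cul, Klhl or Kbtbd followed by a digit. There were 41 of them among 13825 genes, 8 Cul, 25 Klhl and 8 Kbtbd genes, and all 41 reached the mean of 10 counts per library that was asked of a gene to be tested, as did 13084 genes in all. The rule used names only and no measured value, although it was chosen with earlier results of these data known.

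RNA was sequenced from tibialis anterior (TA) muscle of adult male mice, WT or with a whole-body deletion of Fgf21 (Fgf21KO), the gene of a hormone-like growth factor. The left sciatic nerve was cut, the right leg kept its nerve as the control, and muscles were taken on day 14. The study's methods describe the control leg as operated on without cutting the nerve. WT mice gave the sham library WS and the denervated library WD, Fgf21KO mice gave KS and KD in the same way, and each library was made from 4 pooled muscles. The sham and denervated legs of a genotype thus came from the same mice by the series' design, although no label ties a muscle to a mouse. The study's sequencing methods, however, write of sham-operated and denervated mice, which can be read as separate animals. Values of a gene are given with sham before denervated and with WT before KO. The WT mice were C57BL/6J per the study's methods, and the Fgf21 gene was absent from every cell of the KO mice, not from muscle alone. Because each group was 1 pooled library, a difference between 2 libraries has no replicate check, and its 95% interval covers counting error only and leaves out the spread between mice.

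Ubiquitin ligases choose the proteins that a cell marks for degradation or for a change in their function. In a cullin-RING ligase, the cullin holds at its far end a RING protein, which brings the loaded ubiquitin enzyme, and at its near end an adaptor that holds the substrate. CUL1 uses SKP1 and F-box proteins, CUL2 and CUL5 use the elongins, CUL4A and CUL4B use DDB1, and CUL3 binds BTB proteins directly. A kelch-BTB protein therefore does the work of linker and receptor in a single chain, its BTB domain on CUL3 and its kelch propeller on the substrate. The cullin is switched on by attachment of the ubiquitin-like protein NEDD8 and switched off by the COP9 signalosome. In skeletal muscle, several kelch proteins act on sarcomere proteins, while the F-box protein atrogin-1 works with CUL1 during atrophy.

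Promoter sequences of 5 members with large changes are shown because each held a motif of a factor class active in muscle. They are the 250 bases before a RefSeq gene start of GRCm38.p6, written along the gene's strand, and capitals mark the motif. Kbtbd12 (chr6:88627430-88627679, minus strand) held a MEF2 motif at -91, its first base counted back from the start. Klhl21 (chr4:152008641-152008890, plus strand) held the E-box CAGCTG, the core that MyoD-type factors prefer, at -165. Klhl5 (chr5:65107318-65107567, plus strand) held the same E-box at -91, and Klhl6 (chr16:19983050-19983299, minus strand) held it at -51. Cul7 (chr17:46650088-46650337, plus strand) held the FoxO motif GTAAACA at -155.
Kbtbd12: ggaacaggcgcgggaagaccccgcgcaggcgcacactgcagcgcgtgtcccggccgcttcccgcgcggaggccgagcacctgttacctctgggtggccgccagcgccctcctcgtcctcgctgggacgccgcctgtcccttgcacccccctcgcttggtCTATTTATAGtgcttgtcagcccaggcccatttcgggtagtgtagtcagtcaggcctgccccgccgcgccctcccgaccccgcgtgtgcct
Klhl21: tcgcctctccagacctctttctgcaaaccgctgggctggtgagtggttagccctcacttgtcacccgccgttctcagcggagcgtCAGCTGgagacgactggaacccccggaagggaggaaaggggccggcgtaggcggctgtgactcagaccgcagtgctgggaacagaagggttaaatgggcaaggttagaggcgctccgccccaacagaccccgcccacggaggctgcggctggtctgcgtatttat
Klhl5: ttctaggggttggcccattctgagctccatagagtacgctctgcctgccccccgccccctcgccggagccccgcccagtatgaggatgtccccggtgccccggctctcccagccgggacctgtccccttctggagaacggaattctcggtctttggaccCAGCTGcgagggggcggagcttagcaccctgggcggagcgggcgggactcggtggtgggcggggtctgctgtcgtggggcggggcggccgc
Klhl6: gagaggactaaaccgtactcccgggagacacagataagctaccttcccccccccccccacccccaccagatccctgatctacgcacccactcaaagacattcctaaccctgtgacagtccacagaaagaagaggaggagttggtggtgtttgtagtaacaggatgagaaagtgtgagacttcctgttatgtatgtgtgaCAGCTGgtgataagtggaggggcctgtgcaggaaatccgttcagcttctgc
Cul7: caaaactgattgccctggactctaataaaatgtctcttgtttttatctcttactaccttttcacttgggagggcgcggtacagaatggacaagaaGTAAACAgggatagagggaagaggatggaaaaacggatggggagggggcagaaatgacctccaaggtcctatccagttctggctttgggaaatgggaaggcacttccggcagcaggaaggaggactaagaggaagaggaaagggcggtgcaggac

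A window was found for 35 of the 41 members, 48 windows in all, among 32851 windows of all genes, and both strands were searched. CAGCTG was in 12.5% of the members' windows and 13.0% of all windows, so the members did not hold it more often than promoters in general. Besides Klhl21, Klhl5 and Klhl6, it was found at Klhl13 and Klhl4, and these 5 genes moved in both directions on denervation (2 higher and 3 lower). The general E-box CANNTG, which includes CAGCTG, was in 47.9% of the members' windows and 66.2% of all windows, while median GC content was 60.8% and 52.4%. GTAAACA was in 2.08% against 3.17%, the MEF2 motif in 2.08% against 0.508%, and the cAMP response element TGACGTCA, found at Klhl12, in 2.08% against 1.55%, each a single window among the members'. A match is a stretch of letters and was not tested for binding.

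Total counts over the genes of the table were 25249879 and 29150147 in WT and 34141303 and 27740920 in KO, and a count of 3 corresponded to between 0.0919 and 0.129 CPM (counts scaled to library size with TMM factors). Members had between 7 and 12858 counts per library, with a median of 428.5. Of 10 muscle fibre markers, 3 were in the table (Myh1, Tnni2 and Mylpf), and they summed to 41900 CPM in WS and 25500 in WD, and to 40600 in KS and 27700 in KD. The denervation markers in the table, 4 of 8, were higher by at least 2-fold in both genotypes, in the direction the surgery labels give, while Fgf21 itself was not analysed here. Summed endothelial markers (6 of 6 in the table) were 426 CPM in WS and 201 in WD, and 344 in KS and 190 in KD. Summed macrophage markers (8 of 8) were 25.4 and 58.4 CPM in WT, and 25 and 58 in KO. Markers of fibro-adipogenic progenitors (7 of 7) summed to 634 and 417 CPM in WT and 618 and 432 in KO, those of Schwann cells (3 of 6) to 53.2 and 22.1, and 53.7 and 22.6, and satellite cells had 1 marker of 5, Sdc4, at 17.2 and 54.9, and 17.4 and 49.1. The smallest count of any gene in the table was 1, so no marker in it could be at 0. In whole muscle, fewer cells of a type and less RNA per cell cannot be told apart.

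Denervation moved the family in both directions, and its median hardly shifted. In the additive fit of surgery and genotype over the 4 libraries (the quasi-likelihood test of edgeR, p-values adjusted by Benjamini and Hochberg, where the other genotype serves as the replicate), 7 of 41 members passed an adjusted p below 0.05 with at least a 2-fold change. Over all genes tested this share was 13.1%, with 6.84% higher and 6.24% lower, and the members' share was 17.1%. Klhl5, Cul7, Kbtbd11 and Klhl2 rose, and Kbtbd12, Klhl21 and Klhl6 fell. In both genotypes, summed macrophage markers and the satellite cell marker Sdc4 were higher in the denervated library. Summed endothelial, fibre, progenitor and Schwann cell markers were lower there. The part of these cell types in the changes of the 7 members was not tested. When WS was left out, 4 members were called, Klhl5, Cul7, Kbtbd12 and Klhl21. Without the 2-fold limit, 12 members passed as higher and 13 as lower, or 61.0% in all, against 53.5% of all genes tested (26.6% higher and 27.0% lower). Scaled to total counts only, the median of all genes itself moved to 0.29 on the log2 scale in WT and 0.36 in KO, and the split became 16 higher and 4 lower, with Cul2, Klhl22 and Klhl24 changing sign. With DESeq2's size factors in the edgeR fit the split stayed at 12 and 13. DESeq2's own Wald test passed fewer members, 5 as higher and 7 as lower, beside 16.9% and 19.0% of all genes. Many of the smaller changes below thus passed in the edgeR fit only.

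Between single libraries, 10 members (24.4%) differed by at least 2-fold between WD and WS, 5 higher and 5 lower, while 14.8% of all genes did so (7.18% higher, 7.61% lower). Between KD and KS, 4 members (9.76%) did so, 2 higher and 2 lower, beside 13.6% of all genes (7.51% higher, 6.1% lower). The 4 members past 2-fold in both genotypes were Klhl5 and Cul7 on the higher side, where 5.1% of all genes were, and Kbtbd12 and Klhl21 on the lower side, where 3.99% were. The median log2 ratio of the members was -0.12 in WT and -0.06 in KO, beside 0.01 in both for all genes. The median size of the log2 ratio, whatever its sign, was 0.39 for members and 0.40 for all genes in WT, and 0.30 and 0.39 in KO.

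**Figure D1:**
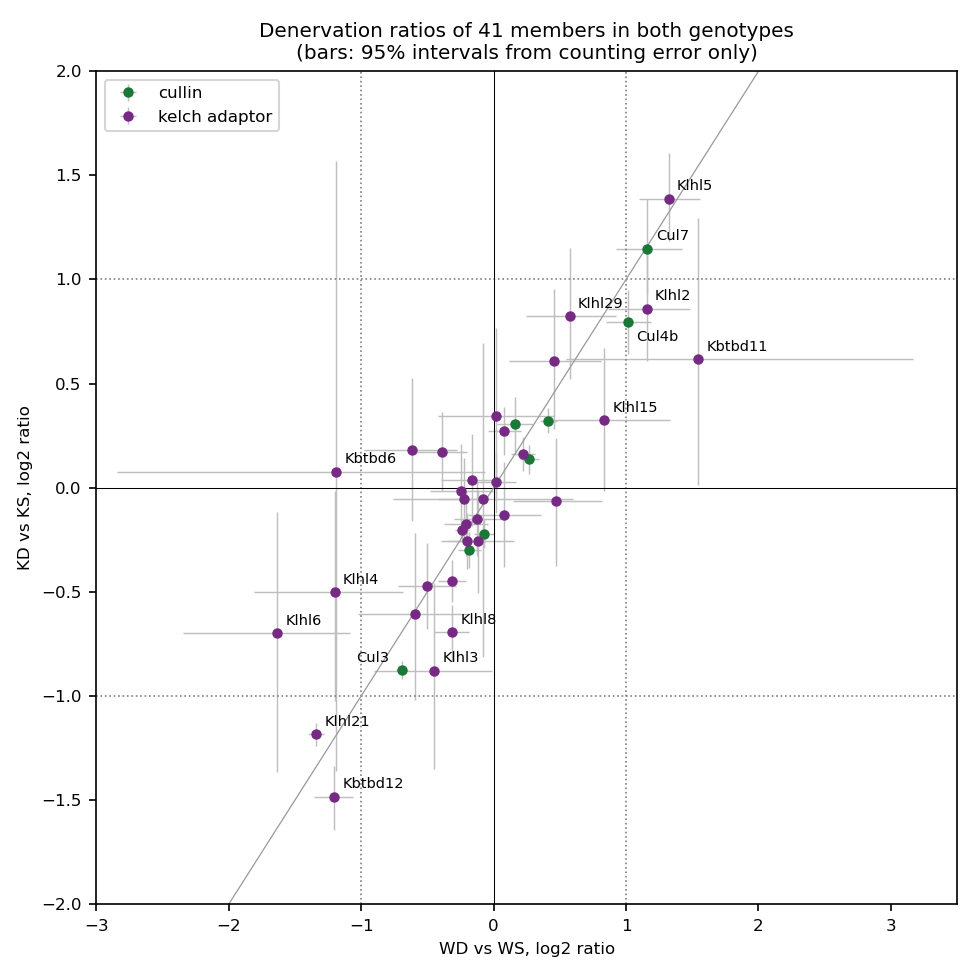
Each point is a member, with its log2 ratio of WD to WS on the x axis and of KD to KS on the y axis, green for cullins and purple for kelch adaptors, grey bars for 95% counting intervals, dotted lines at 2-fold and a diagonal of equal ratios. Klhl5 and Cul7 lie past 2-fold at the upper right and Klhl21 and Kbtbd12 at the lower left, and with TMM scaling 35 of 41 points (85.4%) have the same sign on both axes, as do 82.8% of all genes tested.

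Of the 8 cullins, 7 passed the test, Cul4b, Cul7, Cul4a, Cul1 and Cul9 as higher and Cul3 and Cul2 as lower, and with total counts only Cul2 changed sign and did not pass. Of all genes tested 53.5% passed, 26.6% as higher and 27.0% as lower, and nothing particular to the cullins is read from their count. Only Cul7 also passed the 2-fold limit. Their expression was read in CPM for a gene across libraries and in CPM per kb of transcript for comparisons between genes.

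Cul3, the partner of the kelch-BTB adaptors, stood at 410.5 and 254.1 CPM in WT and 432.9 and 235.8 in KO. Both denervated libraries lay below both sham libraries, and the sham libraries lay close together. The log2 ratio was -0.69 (95% interval -0.73 to -0.65) in WT and -0.88 (-0.92 to -0.83) in KO, with an edgeR adjusted p of 2.6e-10. With total counts only the log2 fold change over the 4 libraries was -0.46 in place of -0.78 (edgeR adjusted p = 5.25e-05). Of all reads on the 8 cullins, Cul3 took 45.7% (Wilson 95% interval 45.0 to 46.4) in WS and 30.9% (30.4 to 31.5) in WD, and 46.6% (46.0 to 47.2) in KS and 30.4% (29.9 to 31.0) in KD. This share does not depend on the scaling between libraries.

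Per kb of transcript, Cul3 had the highest level of the cullins in each library, 87.2 and 54.0 CPM per kb in WT and 91.9 and 50.1 in KO. Cul4a followed with 34.9, 46.4, 35.5 and 44.4 CPM per kb, and Cul1 with 33.5, 40.4, 34.8 and 38.2. The distance between Cul3 and these scaffolds thus narrowed in both denervated libraries. Cul3 made up 42.2% of the summed cullin level in WS and 43.0% in KS, and 27.6% in WD and 27.2% in KD. The sum itself was 206.5 and 195.4 CPM per kb in WT and 213.6 and 184.0 in KO, and its direction turned with total counts only (190.0, 218.9, 185.8 and 205.2).

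**Figure D2:**
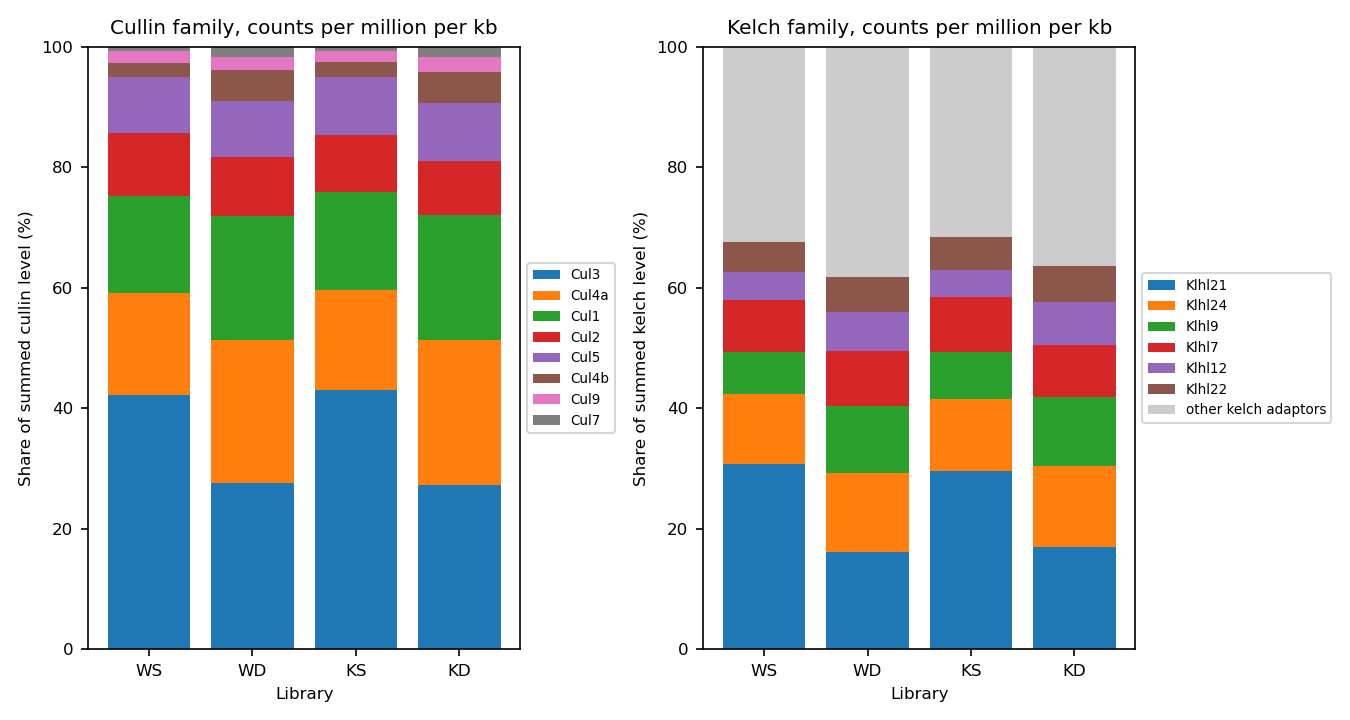
Stacked bars give each gene's share (%) of the summed level, in CPM per kb of transcript, of the 8 cullins (left) and of the 32 kelch adaptors with a transcript length (right) in the 4 libraries. Cul3 takes 42.2% and 43.0% of the cullin level in the sham libraries against 27.6% and 27.2% in the denervated ones, and Klhl21 takes 30.8% and 29.5% of the kelch level against 16.2% and 16.9%.

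Cul7, the scaffold that pairs with the F-box protein FBXW8 and with growth-related 3M proteins, had 177 and 559 counts in WT and 229 and 531 in KO, or 7.62, 17.1, 7.71 and 17.2 CPM. The denervated levels were alike in both genotypes, as were the sham levels. The log2 ratio of Cul7 was 1.16 (0.92 to 1.42) in WT and 1.15 (0.93 to 1.38) in KO (edgeR adjusted p = 1.28e-08). Cul7 kept the lowest level per kb of the 8 cullins, at 1.38 CPM per kb in WS and 3.1 in WD.

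Cul4a and Cul4b are close paralogs that share the DDB1 linker. Cul4b had 16.4 and 33.2 CPM in WT and 18.6 and 32.3 in KO, and Cul4a had 130.1, 173.0, 132.5 and 165.7. For both genes the denervated libraries lay above the sham libraries without overlap. The log2 ratio of Cul4b was 1.02 (0.85 to 1.19) in WT and 0.79 (0.64 to 0.95) in KO (edgeR adjusted p = 1.51e-08), and that of Cul4a was 0.41 (0.35 to 0.48) and 0.32 (0.26 to 0.38) (edgeR adjusted p = 7.74e-05). Cul4b stayed under the 2-fold limit of the joint test at a log2 fold change of 0.90, but passed it with total counts only.

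Cul1, the scaffold of the F-box ligases, rose from 105.8 CPM in WS to 127.7 in WD and from 110.1 in KS to 120.9 in KD, log2 ratios of 0.27 and 0.14 (edgeR adjusted p = 0.0208). Cul9, a large CUL7 relative that holds p53 in the cytoplasm, had 31.5 and 35.2 CPM in WT and 28.5 and 35.2 in KO, log2 ratios of 0.16 and 0.30 (edgeR adjusted p = 0.0344). These were small increases next to those of Cul7 and Cul4b. Cul2, the scaffold used by the von Hippel-Lindau protein, had 82.0 and 72.2 CPM in WT and 78.1 and 63.5 in KO, log2 ratios of -0.18 and -0.30 (edgeR adjusted p = 0.0087). Cul5, used by SOCS-box proteins, had 114.8 and 109.1 CPM in WT and 121.3 and 104.0 in KO and did not pass (edgeR adjusted p = 0.0919). Cul5 overlaps the antisense gene Gm16124 over 110 bases, which had between 90 and 175 counts, and the strand setting of the counting is not given in the sources used here.

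Among kelch adaptors of striated muscle, Kbtbd12 was the only member of a list of 9 that could be read, and it fell. The other 8 (Klhl30, Klhl31, Klhl33, Klhl34, Klhl38, Klhl40, Klhl41 and Kbtbd13) were not analysed here, so nothing is said of the muscle-restricted adaptors as a class. Kbtbd12 had 984 and 598 counts in WT and 1288 and 478 in KO, or 42.4, 18.3, 43.4 and 15.5 CPM. The 2 sham values were close to each other and more than 2-fold above the denervated values. On the log2 scale the ratio was -1.21 (-1.36 to -1.06) in WT and -1.48 (-1.64 to -1.34) in KO (edgeR adjusted p = 2.27e-12), and it was called in every scaling and with each library left out in turn. The MEF2 motif printed above lies in its promoter window, the only window among the 48 that held it. The summed muscle fibre markers moved the same way, although Myh1, the largest of them, did not pass with total counts only. The sarcomere gene Neb was level (log2 fold change 0.03), and the desmin gene Des rose (0.54). The part of muscle fibres in the difference of Kbtbd12 was not tested.

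The 18 adaptors with described substrates split into 4 that rose, 6 that fell and 8 that did not pass. The share that passed was thus 55.6%, and that called 11.1%, close to the 53.5% and 13.1% of all genes tested. Klhl2, Klhl15, Klhl13 and Klhl9 rose, and Klhl21, Klhl3, Kbtbd8, Klhl7, Klhl22 and Klhl24 fell, although with total counts only Klhl22 and Klhl24 changed sign and of the 6 only Klhl21 still passed as lower. Past 2-fold were Klhl21 and Klhl2.

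Klhl21, which takes CUL3 to Aurora B during cell division and has also been described to act on the kinase IKK-beta, had 6768 and 3756 counts in WT and 8292 and 3800 in KO, or 291.3, 115.0, 279.1 and 122.8 CPM. Each denervated value was well under each sham value. The log2 ratio was -1.34 (-1.40 to -1.28) in WT and -1.18 (-1.24 to -1.13) in KO (edgeR adjusted p = 8.64e-15). With total counts only the joint log2 fold change was -0.94 and fell short of 2-fold, with an edgeR adjusted p of 6.95e-07. Per kb of transcript, Klhl21 led the 32 kelch adaptors with a transcript length in each library, with 73.1 and 28.9 CPM per kb in WT and 70.0 and 30.8 in KO. It held 28.8% (Wilson 28.2 to 29.4) of all kelch reads in WS and 15.0% (14.5 to 15.4) in WD, and 27.5% (27.0 to 28.0) in KS and 15.5% (15.0 to 15.9) in KD. Klhl21 overlaps Gm9768 on the other strand over 817 bases, a gene not analysed here.

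Klhl9 and Klhl13, which form one complex with CUL3 and share Aurora B as a substrate with Klhl21, moved the other way. Klhl9 had 70.6 and 82.5 CPM in WT and 78.2 and 87.6 in KO, log2 ratios of 0.22 and 0.16 (edgeR adjusted p = 0.0309). Klhl13 had 107, 207, 121 and 193 counts in that order, log2 ratios of 0.46 and 0.61 (edgeR adjusted p = 0.0193). Both genes were higher in both denervated libraries, but for Klhl9 the WD and KS values lay near each other. Per kb, Klhl9 went from 16.9 to 19.8 CPM per kb in WT and from 18.7 to 21.0 in KO. Its share of the summed kelch level went from 7.12% to 11.1% in WT and from 7.9% to 11.5% in KO. That sum fell from 237.4 to 178.5 CPM per kb in WT and from 237.3 to 182.3 in KO. With total counts only the kelch sum was 218.3 and 199.9 in WT and 206.4 and 203.3 in KO, a smaller fall. With TMM scaling, part of the gain in share thus came from the smaller sum, and how large a part depended on the scaling.

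Klhl2 and Klhl3 both hand WNK kinases to CUL3, and they moved in opposite directions. Klhl2, also known as an actin-binding protein, had 116 and 366 counts in WT and 189 and 359 in KO, or 4.99, 11.2, 6.36 and 11.6 CPM. The log2 ratio of Klhl2 was 1.16 (0.86 to 1.48) in WT and 0.86 (0.61 to 1.13) in KO (edgeR adjusted p = 2.64e-06), a call at the edge of 2-fold that was lost with DESeq2's size factors, without genotype in the fit and when WS or KD was left out. Klhl3, in which mutations cause familial hyperkalemic hypertension, had 86, 88, 120 and 67 counts, or 3.70, 2.70, 4.04 and 2.17 CPM. The denervated values of Klhl3 lay under the sham values, with log2 ratios of -0.45 (-0.90 to -0.01) and -0.88 (-1.35 to -0.46) (edgeR adjusted p = 0.0209), and with total counts only Klhl3 did not pass. Their substrate gene Wnk1 is given with the pathway genes.

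Klhl24, which controls keratin 14 in skin and desmin in heart, ranked next to Klhl21 in level per kb in each library and had 223.2 and 189.0 CPM in WT and 232.0 and 201.2 in KO. Its log2 ratios of -0.24 and -0.21 were small (edgeR adjusted p = 0.00863). Klhl7, linked to retinitis pigmentosa, had 60.3 and 48.5 CPM in WT and 63.4 and 46.5 in KO, log2 ratios of -0.31 and -0.45 (edgeR adjusted p = 0.000199). Klhl22, which acts on PLK1 and on the amino acid sensor component DEPDC5, had 31.0, 27.0, 33.7 and 28.2 CPM over WS, WD, KS and KD (edgeR adjusted p = 0.04). Kbtbd8, an adaptor of neural crest specification, had 104, 96, 131 and 89 counts, log2 ratios of -0.59 and -0.60 (edgeR adjusted p = 0.0239). In these 4 genes both denervated libraries were lower than both sham libraries in CPM, by less than 2-fold. Klhl15, which hands the phosphatase subunit PPP2R5B to CUL3, is given with the genotype comparison, since its sham libraries differed.

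The 8 adaptors of this list that did not pass were Klhl12, Klhl17, Klhl20, Klhl25, Kbtbd2, Kbtbd4, Kbtbd6 and Kbtbd7. Klhl12, which acts on Dishevelled and on the coat protein SEC31A, had 37.7 and 39.8 CPM in WT and 36.6 and 44.1 in KO. Kbtbd2, which takes the PI3-kinase subunit p85-alpha to CUL3, was nearly level at 25.9, 26.2, 24.7 and 25.2 CPM, with log2 ratios of 0.02 (-0.14 to 0.17) and 0.03 (-0.12 to 0.17). Counting error alone thus left room for changes of Kbtbd2 of up to 0.17 on the log2 scale in each genotype. Kbtbd6 and Kbtbd7 act together on the Rac activator TIAM1. Kbtbd6 was the scarcest of the 8, with 15, 8, 9 and 10 counts, a log2 ratio of -1.19 (-2.84 to -0.07) in WT and 0.08 (-1.36 to 1.57) in KO. Kbtbd7 had 11.8, 9.95, 10.8 and 10.7 CPM. Kbtbd4, known for its link to histone deacetylase complexes, had 20.2, 18.5, 17.9 and 16.1 CPM and overlaps Ndufs3 (7013 to 9231 counts) and Ptpmt1 (597 to 1190 counts) on the other strand. Klhl17, an actin-binding protein of neurons, had 12.5, 11.2, 11.2 and 11.5 CPM.

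**Figure D3:**
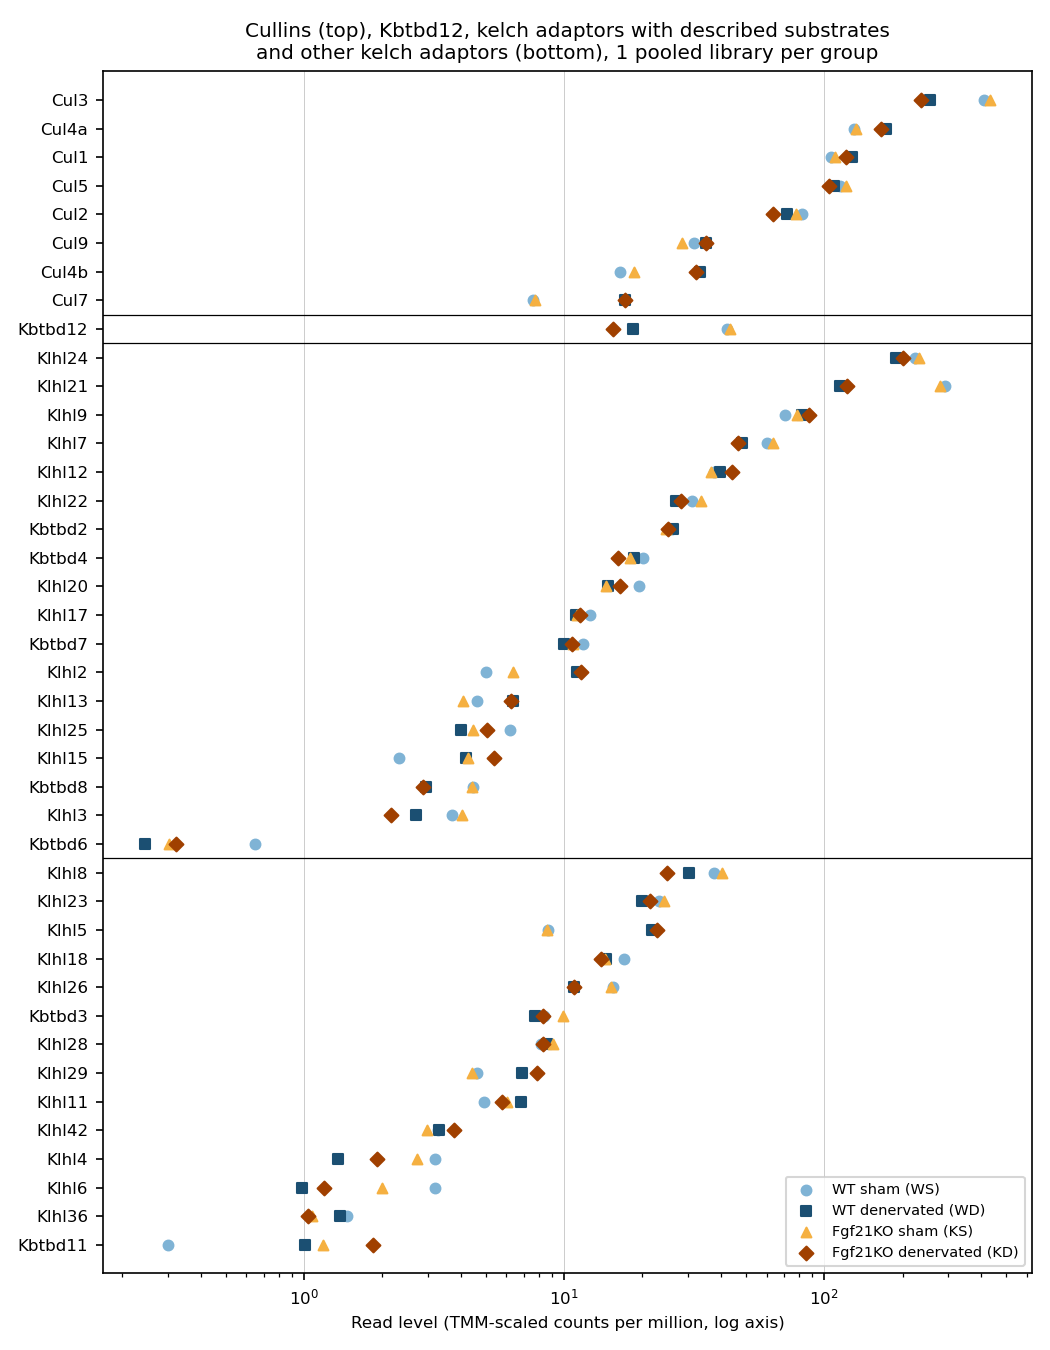
TMM-scaled CPM (log axis) of the 41 members in the 4 libraries, grouped by role from cullins at the top to other kelch adaptors at the bottom and ordered by level, with circles for WS, squares for WD, triangles for KS and diamonds for KD. Sham and denervated symbols stand apart for Cul3, Cul4b, Cul7, Kbtbd12, Klhl21, Klhl2 and Klhl5, and Kbtbd11 shows the lowest WS value, 7 counts.

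The 14 other adaptors, for which no substrate was listed, held 3 of the 7 called members, or 21.4% of their number beside 13.1% of all genes tested. Klhl5, Klhl29 and Kbtbd11 rose, Klhl6, Klhl4, Klhl8 and Klhl26 fell, and Klhl23, Klhl18, Kbtbd3, Klhl28, Klhl11, Klhl42 and Klhl36 did not pass. Klhl5 had 202 and 713 counts in WT and 256 and 701 in KO, or 8.69, 21.8, 8.62 and 22.7 CPM. The sham values were nearly equal, as were the denervated values. On a log2 scale Klhl5 differed by 1.32 (1.10 to 1.56) in WT and 1.39 (1.19 to 1.61) in KO (edgeR adjusted p = 1.34e-10), the highest ratio of a member in KO and, after Kbtbd11, in WT. Klhl5 made up 1.01% of the summed kelch level per kb in both sham libraries, and 3.39% in WD and 3.44% in KD. That sum was smaller in the denervated libraries, by less with total counts only.

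Klhl6, best known from B lymphocytes, had few reads, 74 and 32 in WT and 59 and 37 in KO. Its log2 ratio was -1.63 (-2.35 to -1.08) in WT and -0.70 (-1.37 to -0.11) in KO (edgeR adjusted p = 0.00274), and it was not called by DESeq2's Wald test, with total counts only or when WS was left out. Klhl4 had 74, 44, 81 and 59 counts, with log2 ratios of -1.20 (-1.81 to -0.68) and -0.50 (-1.03 to -0.01) (edgeR adjusted p = 0.0132), and with total counts only it did not pass. In both genes the denervated values lay under the sham values, by more in WT than in KO. All 6 endothelial markers fell as well, as did 5 of 7 markers of fibro-adipogenic progenitors (4 and 2 with total counts only). By cell count, however, the paper reports more fibro-adipogenic progenitors in denervated than in sham muscle. The part of these cell types in the lower values of Klhl6 and Klhl4 was not tested.

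Klhl8 had 37.8 and 30.3 CPM in WT and 40.3 and 24.9 in KO, log2 ratios of -0.32 and -0.69 (edgeR adjusted p = 6.47e-05). Klhl26 had 15.5, 10.9, 15.1 and 10.9 CPM, log2 ratios of -0.50 and -0.47 (edgeR adjusted p = 0.00167). Klhl29 had 107, 225, 131 and 243 counts, log2 ratios of 0.57 and 0.82 (edgeR adjusted p = 0.00174). The fall of Klhl26 was of like size in both genotypes, and that of Klhl8 was steeper in KO. With total counts only, neither passed. The members in this group that did not pass had log2 ratios between -0.22 and 0.47 in WT and between -0.26 and 0.35 in KO.

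Between WT and Fgf21KO, no member passed the test. For genotype, edgeR's quasi-likelihood test passed 0 of 41 members, DESeq2's Wald test also passed 0, and 2 members, Kbtbd11 and Klhl15, had an unadjusted p below 0.05 in edgeR. That unadjusted p was reached by 4.88% of members and by 7.93% of all genes tested. Over all genes tested 0.673% passed and 0.176% passed with a 2-fold change. Between KS and WS, 1 member, Kbtbd11, differed by 2-fold or more (2.04% of all genes, 0.887% higher and 1.15% lower), and between KD and WD 0 members did (1.55% of all genes, 0.841% higher and 0.711% lower). The median log2 ratio of the members was -0.01 for KS against WS and 0.004 for KD against WD, and its median size, whatever the sign, was 0.13 and 0.10, beside 0.15 and 0.11 for all genes.

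Kbtbd11, a little-studied kelch protein, had 7 counts in WS, the lowest count of a member in a library, and 33 in WD, 35 in KS and 57 in KD. WS stood apart at the bottom, WD and KS were alike, and KD was highest. The log2 ratio of KS to WS was 1.75 (0.78 to 3.38) and that of KD to WD 0.82 (0.22 to 1.53), while the genotype effect did not pass (log2 fold change 1.24, edgeR adjusted p = 0.23). For denervation the log2 ratio was 1.54 (0.55 to 3.17) in WT and 0.62 (0.01 to 1.30) in KO (edgeR adjusted p = 0.0314), a call that was lost when WS or KD was left out, without genotype in the fit, and with DESeq2's Wald test. Kbtbd11 overlaps Gm37844 on the other strand over 1772 bases, a gene not analysed here. Klhl15 had a like order, with 54 and 137 counts in WT and 127 and 166 in KO. Its log2 ratio of KS to WS was 0.86 (0.41 to 1.37) and of KD to WD 0.35 (0.02 to 0.69), again without passing for genotype (edgeR adjusted p = 0.397). On denervation Klhl15 had log2 ratios of 0.83 (0.39 to 1.33) in WT and 0.32 (-0.01 to 0.67) in KO (edgeR adjusted p = 0.0357).

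The denervation ratios of WT and KO were set side by side for each member. Over the 41 genes, which are no independent replicates, Pearson's r between the WT and KO ratios was 0.83 and Spearman's rank correlation 0.806, and 35 members (85.4%) had the same sign in both, beside 82.8% of all genes tested. The difference between the genotypes' log2 ratios had a counting interval that left out 0 for 13 members, while 30.1% of all genes tested did so, and the spread between mice is not in these intervals. Towards a larger ratio in KO were Klhl6, Klhl25, Klhl4, Klhl20, Klhl12 and Klhl21, and towards a smaller one Klhl11, Klhl8, Kbtbd12, Cul3, Cul5, Cul1 and Cul4a. The 6 members with opposite signs were Kbtbd6, Klhl25, Klhl20, Klhl17, Klhl28 and Klhl11, and in none of them did both genotypes' intervals leave out 0.

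Klhl25, which acts on the translation inhibitor 4E-BP1 and on ATP citrate lyase, had 144 and 131 counts in WT and 132 and 156 in KO, or 6.20, 4.01, 4.44 and 5.04 CPM. The WS library was highest and WD lowest, with both KO libraries between. Its log2 ratio was -0.62 (-0.98 to -0.28) in WT and 0.18 (-0.16 to 0.53) in KO, a difference of 0.81 (0.33 to 1.29). Klhl20, which acts on the kinase DAPK1 and on PML, had 19.4 CPM in WS against 14.8 in WD, 14.5 in KS and 16.4 in KD. Here too the WS library stood above the other 3. The log2 ratio of Klhl20 was -0.39 (-0.58 to -0.20) in WT and 0.17 (-0.02 to 0.36) in KO, a difference of 0.56 (0.30 to 0.83). In Klhl11 the difference was -0.54 (-0.99 to -0.10), with 114, 223, 179 and 178 counts in WS, WD, KS and KD. For Cul3 the fall was steeper in KO by 0.18 (interval of the KO minus WT difference -0.24 to -0.13). Whether any of these differences would recur in other mice was not tested.

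Beyond the members, 68 genes of the cullin-RING pathway were read, of which 22 rose and 21 fell (43 and 12 with total counts only), or 63.2%, and 5 were called (7.35%), shares that stand beside the 53.5% and 13.1% of all genes given above. These genes were taken from hand-written lists, and those named here that were not called were picked after their values were seen. Of 6 RING and linker genes, Ddb1 (log2 fold change 0.90), the linker of CUL4A and CUL4B, and Skp1a (0.35), that of CUL1, rose, and Rbx1 (-0.46), the common RING protein, fell. With total counts only, Rbx1 did not pass, 5 of the 6 rose and Ddb1 was called. Thus Ddb1 moved in the direction of both Cul4 genes, with 254.6 and 447.4 CPM in WT and 231.2 and 456.9 in KO.

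Of 10 genes that conjugate NEDD8, Nedd8, Uba3, Nae1 and Dcun1d4 rose and Dcun1d1, Dcun1d2 and Dcun1d5 fell, while with total counts only Dcun1d1 changed sign and 7 rose and 1 fell. Dcun1d4, 1 of 5 DCN1-like genes that help to load NEDD8 on cullins, was called and had 306 and 977 counts in WT and 424 and 876 in KO. Its log2 ratio was 1.18 in WT and 0.98 in KO (edgeR adjusted p = 1.33e-09). Its paralog Dcun1d2 had 3123, 2282, 3858 and 2150 counts and a log2 fold change of -0.92. The DCN1-like genes thus moved in both directions. Of 4 genes of cullin exchange and inhibition, Cand1 rose (0.58) and the muscle-enriched paralog Cand2 fell (-0.56), in both scalings. Of 10 COP9 signalosome genes, Cops2, Cops6 and Cops9 rose and Cops8 fell, none by 2-fold, and with total counts only Cops8 changed sign and 8 of 10 passed as higher.

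Of 24 other BTB adaptors, 13 fell and 4 rose with TMM scaling, but with total counts only 8 fell and 9 rose. Among all genes tested 27.0% fell and 26.6% rose with TMM scaling, and 12.8% fell and 46.7% rose with total counts only. Rhobtb2, a BTB protein that binds CUL3, fell from 1064 to 640 counts in WT and from 1270 to 550 in KO, log2 ratios of -1.22 and -1.26 (edgeR adjusted p = 3.46e-12), and with total counts only it did not reach 2-fold. Ivns1abp (log2 fold change 0.90), Rhobtb1 (0.66) and Btbd9 (0.44) were among those that rose.

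Partner and substrate genes of the kelch adaptors, 14 of 19 of them tested, rose in 8 cases and fell in 2, or 11 and 2 with total counts only. These were 57.1% and 14.3% of those tested, beside 26.6% and 27.0% of all genes with TMM scaling. Lmod2, a leiomodin that lengthens thin filaments, had 3171 and 14290 counts in WT and 5069 and 14586 in KO. For Lmod2 the log2 ratio was 1.68 in WT and 1.47 in KO (edgeR adjusted p = 9.73e-17). Tiam1, the target of Kbtbd6 and Kbtbd7, had 207, 68, 171 and 85 counts, log2 ratios of -2.06 and -1.05 (edgeR adjusted p = 1.21e-06). Ppp2r5b, the target of Klhl15, fell (log2 fold change -0.65), and Wnk1, the target of Klhl2 and Klhl3, rose (0.63). Levels of transcripts say nothing of how much of a substrate protein was ubiquitinated.

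**Figure D4:**
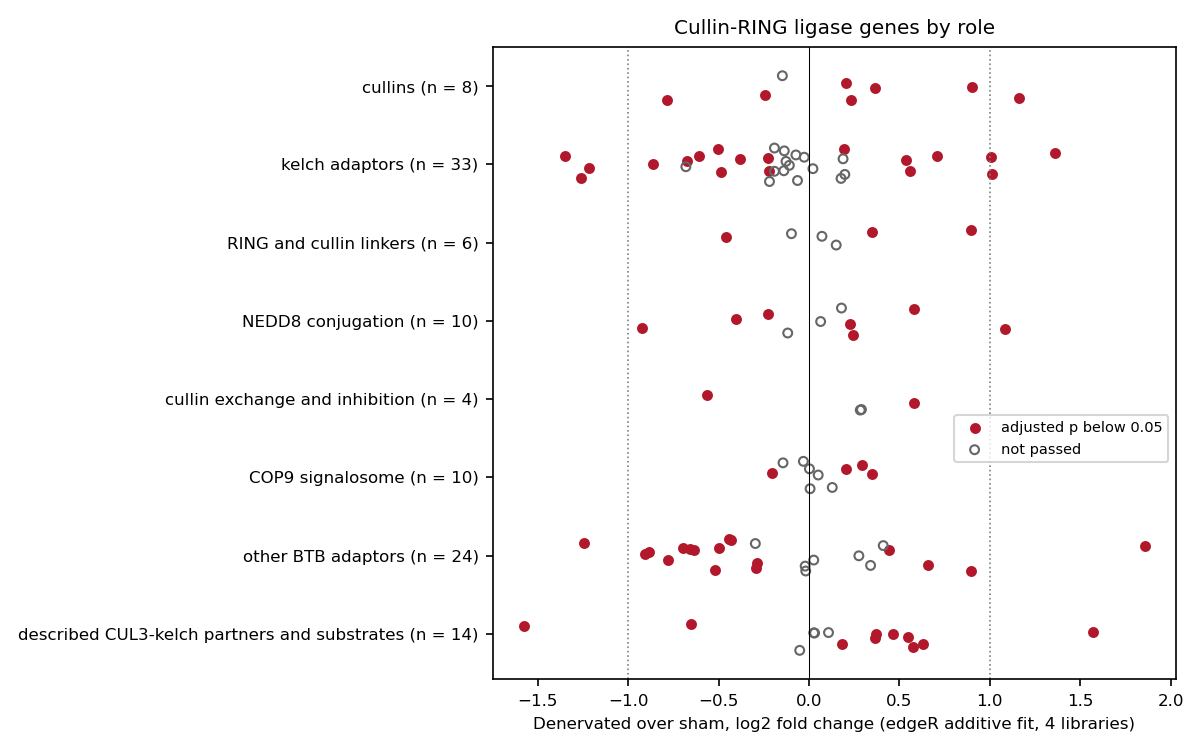
Each point is a gene, placed by its log2 fold change of denervated over sham in the edgeR additive fit over 4 libraries (x axis) and by its role (y axis, with the number of genes tested), filled where the adjusted p was below 0.05, with dotted lines at 2-fold and vertical scatter for legibility only. Cullins and kelch adaptors spread to both sides of 0, and of the 24 other BTB adaptors 13 filled points lie to the left and 4 to the right with TMM scaling, which becomes 8 and 9 with total counts only.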

How the data were processed

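For the 4 libraries, made with a TruSeq Stranded mRNA kit, the authors deposited raw read counts by gene symbol. The deposited second table, named for FPKM, holds log2 values, each the log2 of a count times 1 factor per library, plus 1, with no gene length. The submitters' processing notes name GRCm39 and FastQC, and the aligner and the counter are not given in the sources used here. Groups came from the labels, and no column of samples was left unused.

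Counts were scaled with TMM factors in edgeR 4.0.16 (R 4.3.3). Library pairs were compared by log2 CPM at a prior count of 2, with no test, and 95% counting intervals. Surgery and genotype were fitted additively over the 4 libraries and tested by quasi-likelihood in edgeR, with Benjamini-Hochberg adjustment over 13084 genes. That fit sets the denervated library of a genotype against its sham library. It leaves 1 residual degree of freedom and a common biological coefficient of variation of 0.0681, and its p-values treat the genotypes as replicates of the surgery. A gene passed at an adjusted p below 0.05 and was called, as in the study's methods, if it also changed by 2-fold. The fit was tested on simulated data.

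Transcript lengths were those of the longest protein-coding GENCODE M21 transcript (40 of 41 members, Klhl17 without), and promoters were RefSeq's. Values were computed with Python 3.11.15 and scipy 1.17.1. Genes named were all cullins, all adaptors of the striated muscle and substrate lists, other members past 2-fold or called, and called pathway genes; others were named after their values were seen. Not every gene that this rule would name is reported here. The members and lists were chosen with earlier results of these data known. Alternatives were DESeq2 1.42.0 (size factors, Wald test), total counts only, filters at 0 and at 50 counts, smaller and larger prior counts, the values of the log2 table, surgery alone in the fit, no fold limit and each library left out.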

Additional observations from a re-analysis of the deposited data

How the results depend on the processing

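Of the counts of called genes, counts past 2-fold and medians, 128 values under an alternative stayed near the reported one and 15 did not. The 7 members called for denervation ranged from 4 (without WS) to 8 (without KS) when a library was left out, and Cul7, Kbtbd12, Klhl21 and Klhl5 were called in each of these fits, while Klhl4 was gained without KD and Klhl15 without KS. A fit with 1 library in an arm assumes that it varies like the others. With no fold limit, 25 members passed, as did 3 RING and linker genes, 7 of NEDD8 conjugation, 2 of cullin exchange, 4 of the COP9 signalosome, 17 other BTB adaptors and 10 partners and substrates. With total counts only, 1 RING and linker gene was called in place of 0, and the members' median log2 ratio turned to 0.16 in WT and 0.30 in KO, with a like shift in all genes. Members past 2-fold between WD and WS fell from 10 to 6 with the deposited log2 values, whose added 1 shrinks low genes. Those past 2-fold between KS and WS went from 1 to 0 with the deposited log2 values or a mean count of at least 50, which leaves Kbtbd11 untested, and to 2 with a smaller prior count. Over the alternative fits, the effects of called genes kept their call 106 times and lost it 13 times, none changing direction. No paired analysis was possible because muscles of single mice were pooled, beyond the genotype term, which sets the denervated legs of a genotype against its own control legs, and with surgery alone in the fit 5 members were called. Depth limits Kbtbd6, Kbtbd11, Klhl36, Klhl4 and Klhl6, with under 100 counts in each library.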
